A study of Mus musculus with 6 samples.

Results

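The major histocompatibility complex (MHC), antigen presentation and interferon genes were examined in the striatum, a forebrain region strongly affected in Huntington's disease. Members were the probe sets annotated with exactly 1 gene symbol whose symbol begins with H2-, Tapbp, Ifi, Oas, Isg, Stat, Gbp or an interferon prefix, or is B2m, Tap1, Tap2, Cd74, Mx1, Mx2, Jak1, Jak2, Jak3 or an Irf gene of the single-digit series. They came to 111 probe sets for 89 genes, of 12422 probe sets (8251 named genes) in all. Of the 89 genes, 31 lie on chromosome 17, the mouse MHC chromosome, and 58 lie elsewhere. The pattern also takes in H2-Ke6, a steroid dehydrogenase gene that lies in the MHC and has no part in antigen presentation.

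The samples were the striata of 3 Hdh4/Q80 mice (replicates 7, 8 and 9) and 3 wild type mice (replicates 4, 5 and 6), with 1 Affymetrix array per mouse. In Hdh4/Q80 mice the CAG repeat of the huntingtin gene is lengthened in the animal's own copy of the gene, so the mutant protein is made wherever that gene is normally active. The labels give all 6 mice as C57BL/6 females of 12 months, and do not say whether the mutants carry 1 or 2 expanded alleles. Whole striatal tissue was used, so fewer cells of a type and less RNA per cell cannot be told apart. The comparison asks which of these transcripts differ in level between mutant and wild type striatum.

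MHC class I molecules pair a heavy chain with beta-2-microglobulin and show peptides from inside the cell to CD8 T cells. The Tap1-Tap2 pump brings those peptides into the endoplasmic reticulum, where tapasin (Tapbp) helps to load them. MHC class II molecules, found mainly on professional antigen-presenting cells and on activated microglia, show peptides taken up from outside to CD4 T cells, and the invariant chain Cd74 guards their groove until loading. Interferons bind cell-surface receptors and act through Jak kinases, Stat proteins and Irf factors on both systems and on a large set of antiviral genes. In healthy brain most of these genes are kept low, and neuroinflammation is known for raising them.

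The DNA through which this pathway acts is shown first, because it is what many members share beyond their names. Upstream sequences were available for 71 of the 89 genes from RefSeq (mouse build GRCm38.p6), each running from 250 bases before to 50 bases after an annotated start, 300 bases in all. Both strands were searched for 3 motifs: the core of the interferon-stimulated response element GAAANNGAA, its form in class I promoters AGAANNGAA, and the Stat-binding gamma-activated site TTCNNNGAA. The first motif was in 22 of the 71 genes (31%), against 9.76% of all 27025 genes with such a sequence. The class I form was in 16 (22.5%), against 9.22%, and the gamma-activated site was in 18 (25.4%), against 9.55%. The first motif and the class I form can overlap each other, and a match is a run of letters, not a measured binding site. Many member symbols name genes for their induction by interferon. A share above that of all genes is therefore not independent of how the members were picked.

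Matches were unevenly spread over the roles. The first motif was in 12 of 22 genes for interferon-induced effectors and in 7 of 13 genes for interferons and their receptors, against 0 of 9 class I, 0 of 8 class II and 0 of 7 Irf genes. Those 7 were all of the interferon alpha family, close relatives whose matches are not separate observations. The class I form was in 6 of the 9 class I heavy chain genes. The sequences below are those of 5 members chosen because they have a match. They are the class I light and heavy chains, effectors with the motif, and the interferon-gamma-responsive factor Irf1. Tap1, which had the largest difference above 0 of the members, had no match to any of these motifs. Ifit2 had only a gamma-activated site, 241 bases before 1 of its annotated starts. Capitals mark the motif, which begins 139 bases before the start in B2m, 149 in H2-D1, 78, 72 and 66 in Isg15, 18 and 12 in Oas1g and, for the gamma-activated site, 90 in Irf1, whose second annotated start has none. Coordinates are those of GRCm38.p6, B2m at chr2:122147437-122147736 (plus strand), H2-D1 at chr17:35262844-35263143 (plus), Isg15 at chr4:156200769-156201068 (minus), Oas1g at chr5:120887564-120887863 (minus) and Irf1 at chr11:53769764-53770063 (plus).
B2m: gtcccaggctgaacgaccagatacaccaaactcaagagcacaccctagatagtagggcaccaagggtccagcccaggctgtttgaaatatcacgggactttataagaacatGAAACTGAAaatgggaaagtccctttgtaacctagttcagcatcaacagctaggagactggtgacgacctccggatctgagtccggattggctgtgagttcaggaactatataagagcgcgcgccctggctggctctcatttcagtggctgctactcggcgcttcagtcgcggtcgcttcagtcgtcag
H2-D1: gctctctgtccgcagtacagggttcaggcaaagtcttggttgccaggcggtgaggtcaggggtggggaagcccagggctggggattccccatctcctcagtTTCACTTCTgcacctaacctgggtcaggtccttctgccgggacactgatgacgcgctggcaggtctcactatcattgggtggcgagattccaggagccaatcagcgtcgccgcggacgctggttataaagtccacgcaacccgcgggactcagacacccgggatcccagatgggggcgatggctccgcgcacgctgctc
Isg15: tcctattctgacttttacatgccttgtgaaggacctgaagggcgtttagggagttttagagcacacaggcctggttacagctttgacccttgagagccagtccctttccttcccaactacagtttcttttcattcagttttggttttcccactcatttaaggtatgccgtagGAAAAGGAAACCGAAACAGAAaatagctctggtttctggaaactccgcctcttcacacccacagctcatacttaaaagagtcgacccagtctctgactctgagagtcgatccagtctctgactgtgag
Oas1g: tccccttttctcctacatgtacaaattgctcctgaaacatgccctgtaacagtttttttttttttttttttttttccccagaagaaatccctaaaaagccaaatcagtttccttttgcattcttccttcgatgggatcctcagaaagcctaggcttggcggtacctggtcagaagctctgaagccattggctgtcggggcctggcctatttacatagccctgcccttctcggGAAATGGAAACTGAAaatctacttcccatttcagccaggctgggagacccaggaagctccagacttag
Irf1: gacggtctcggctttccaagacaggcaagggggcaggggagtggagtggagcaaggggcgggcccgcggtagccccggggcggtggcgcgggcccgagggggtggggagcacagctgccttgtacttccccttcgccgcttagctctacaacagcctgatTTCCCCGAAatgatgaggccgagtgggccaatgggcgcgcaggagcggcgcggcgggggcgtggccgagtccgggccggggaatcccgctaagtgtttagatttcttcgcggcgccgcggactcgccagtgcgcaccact

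Values are log2 expression levels as the authors deposited them after robust multi-array averaging (RMA), and differences are Hdh4/Q80 minus wild type, so that 1 log2 unit is a doubling. The 6 arrays had medians of 7.1 to 7.13. Hdh4/Q80 replicate 8 stood apart: the SD of its values was 1.74, against 1.77 to 1.81 on the other arrays, and its mean correlation with the others was 0.992, against 0.995 to 0.997. It gave the highest or lowest of the 6 values in 61.8% of all probe sets. For probe sets given below mouse by mouse with a difference of 0.1 or more in size, the value without it is added where it moved by over 1.5 times. A probe set is called dim below when its mean over the 6 arrays lay under 5.82, the lower quartile of all probe sets. This held for 26 of the 111 members (23.4%).

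No member passed the threshold of 0.05 for the adjusted p (limma, Benjamini-Hochberg adjustment over all 12422 probe sets), and neither did any other probe set (0 of 12422, 0%). Adjusted p-values were 0.857 or more. There were 9 members (8.11%) with an unadjusted p under 0.05, 6 higher and 3 lower in Hdh4/Q80, against 5.1% of all probe sets, 2.9% higher and 2.21% lower. Some of these values come from dim probe sets: 4 of the 26 dim members were among the 9, and 5 of the other 85 (5.88%). The 3 Hdh4/Q80 mice did not overlap the 3 wild type mice in 16 members (14.4%), 11 higher and 5 lower, against 11.7% of all probe sets, 6.67% higher and 5.05% lower. Without Hdh4/Q80 replicate 8 the members at an unadjusted p under 0.05 numbered 6 (5.41%, against 4.03% of all probe sets), and those with groups apart 23 (20.7%, against 18.4%).

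The members' differences were as small as those of the array as a whole. Of the 111, 61 lay above 0 and 50 below, with a median of 0.009, against a median of -0.003 over all probe sets. Without replicate 8 there were 55 above and 56 below. They ran from -0.28 (B2m) to 0.30 (Tap1), and their median size without sign was 0.067, against 0.0661 over all probe sets. The median SD within groups was 0.0826 for members and 0.099 for all probe sets. The 95% interval of the difference lay within 1.5-fold in either direction for 110 of the 111 members (99.1%, against 98.6% of all probe sets). The exception was B2m. A bound of 1.25-fold contained the interval of 87 members (78.4%, against 75.7%). RMA compresses differences of dim probe sets, so these bounds hold for the deposited values.

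**Figure D1:**
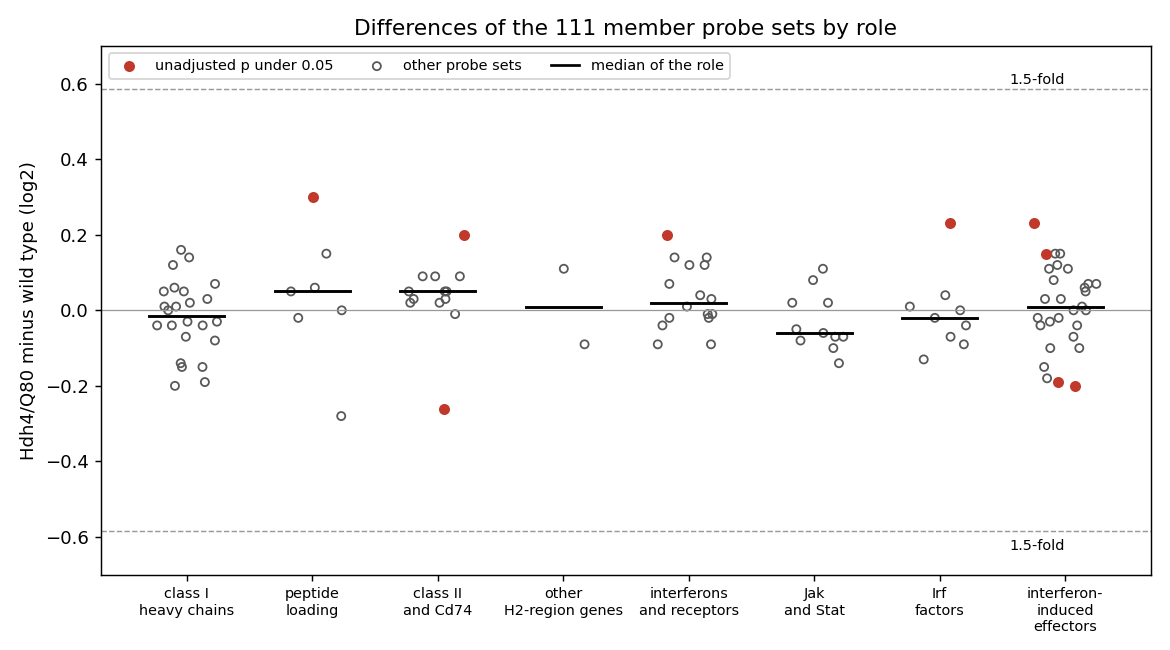
Differences (Hdh4/Q80 minus wild type, log2, vertical axis) of the 111 member probe sets by role (horizontal axis). Each point is 1 probe set, filled where the unadjusted p was under 0.05, and the black bar is the median of the role, and dashed lines mark a change of 1.5-fold. All points lie between -0.28 and 0.30, and every role has points on both sides of 0.

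Class I heavy chains were at similar levels in both groups. Of their 24 probe sets (16 genes), 11 differences lay above 0 and 13 below, with a median of -0.016, and none had an unadjusted p under 0.05. The 13 probe sets of H2-D, H2-K and H2-Q genes include the classical heavy chains that present to CD8 T cells, H2-D1 and H2-K1. They also include nonclassical H2-Q genes and the annotated pseudogenes H2-K2, H2-D4 and H2-Q5. These 13 had 5 differences above 0 and 8 below, with a median of -0.033. That median was 0.014 without Hdh4/Q80 replicate 8, which gave the lowest of the 6 values in 7 of the 13. The 11 probe sets of the nonclassical H2-M and H2-T genes and the annotated pseudogene H2-Bl had 6 above and 5 below, with a median of 0.011. Heavy chain genes are close relatives, so a probe set can also bind transcripts of neighbours in the family.

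H2-D1 encodes a classical heavy chain that C57BL/6 mice carry. Its brightest probe set had 8.77, 8.61 and 8.97 in Hdh4/Q80, against 8.80, 8.71 and 8.82 in wild type. The groups overlapped, with replicate 9 the highest and replicate 8 the lowest of all 6, and the difference was 0.01 (95% interval -0.20 to 0.22). A different H2-D1 probe set had 8.73, 8.32 and 8.66 in Hdh4/Q80, against 8.68, 8.78 and 8.84 in wild type, a difference of -0.20 (-0.43 to 0.04, unadjusted p = 0.0961), where replicate 8 was again the lowest and the difference was -0.07 without it. H2-K1, the other classical heavy chain gene of the strain, had 8.71, 8.55 and 8.95 in Hdh4/Q80, against 8.89, 8.77 and 8.79 in wild type, with wild type inside the spread of Hdh4/Q80 and a difference of -0.08 (-0.31 to 0.15). Its remaining probe sets differed by 0.02 and 0.06.

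H2-T18 encodes the thymus leukaemia antigen, a nonclassical heavy chain of the gut and thymus. It had 9.81, 9.92 and 9.75 in Hdh4/Q80, against 9.69, 9.80 and 9.76 in wild type, overlapping groups that differed by 0.07 (-0.09 to 0.24). H2-K2, annotated as a pseudogene, had 9.82, 9.77 and 9.76 in Hdh4/Q80, against 9.81, 9.79 and 9.85 in wild type, a difference of -0.03. These 6 values lay within a narrow band, and the groups overlapped. H2-M3 presents peptides that begin with formylmethionine, as bacterial and mitochondrial peptides do, and one of its probe sets had 8.60, 8.45 and 8.51 in Hdh4/Q80, against 8.63, 8.71 and 8.67 in wild type. The mutants were all below wild type there, but the difference of -0.15 (unadjusted p = 0.0592, adjusted p = 0.857, limma) stood beside 0.05 in the gene's other probe set. H2-M9, an H2-M family gene, had the mutants above wild type, at 8.25, 8.53 and 8.27 in Hdh4/Q80, against 8.15, 8.25 and 8.16 in wild type (difference 0.16, unadjusted p = 0.0892), and differed by 0.08 without replicate 8. Its lowest mutant and highest wild type mouse were equal after rounding.

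Peptide loading held the members with the largest difference in each direction. B2m, the light chain that every class I molecule needs at the cell surface, had 9.57, 9.09 and 9.60 in Hdh4/Q80, against 9.59, 9.63 and 9.89 in wild type. Replicate 8 lay far below every other mouse, while replicates 7 and 9 were close to wild type replicates 4 and 5, so the groups overlapped. The difference was -0.28 (SE 0.136, -0.59 to 0.02, unadjusted p = 0.0641, adjusted p = 0.857, limma). It was -0.12 without Hdh4/Q80 replicate 8 and -0.19 without wild type replicate 6.

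Tap1, one subunit of the peptide pump, gave different values in its 2 probe sets. The one with the suffix _r_at, which marks probes chosen under relaxed rules, had 6.84, 6.82 and 6.86 in Hdh4/Q80, against 6.54, 6.50 and 6.57 in wild type. All mutants were above all wild type mice, with a difference of 0.30 (SE 0.0651, 0.15 to 0.45), the smallest unadjusted p among members at 0.00102 and an adjusted p of 0.857 (limma). The other Tap1 probe set had 6.98, 7.17 and 6.98 in Hdh4/Q80, against 7.07, 7.07 and 6.98 in wild type, with overlapping groups and a difference of 0.00 (-0.17 to 0.17). Averaged over both probe sets the Tap1 difference was 0.15 (unadjusted p = 0.0304). Tap2, the partner of Tap1 in the pump, had 7.29, 7.26 and 7.23 in Hdh4/Q80, against 7.28, 7.22 and 7.32 in wild type. Its groups overlapped and differed by -0.02. Tapbp, the tapasin that bridges the pump and class I molecules, had 8.67, 8.74 and 8.74 in Hdh4/Q80, against 8.65, 8.59 and 8.46 in wild type in its brightest probe set. The mutants were above wild type in each pairing of mice, with a difference of 0.15 (-0.01 to 0.32, unadjusted p = 0.0699), and 0.10 without wild type replicate 6. The other Tapbp probe sets differed by 0.06 and 0.05.

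**Figure D2:**
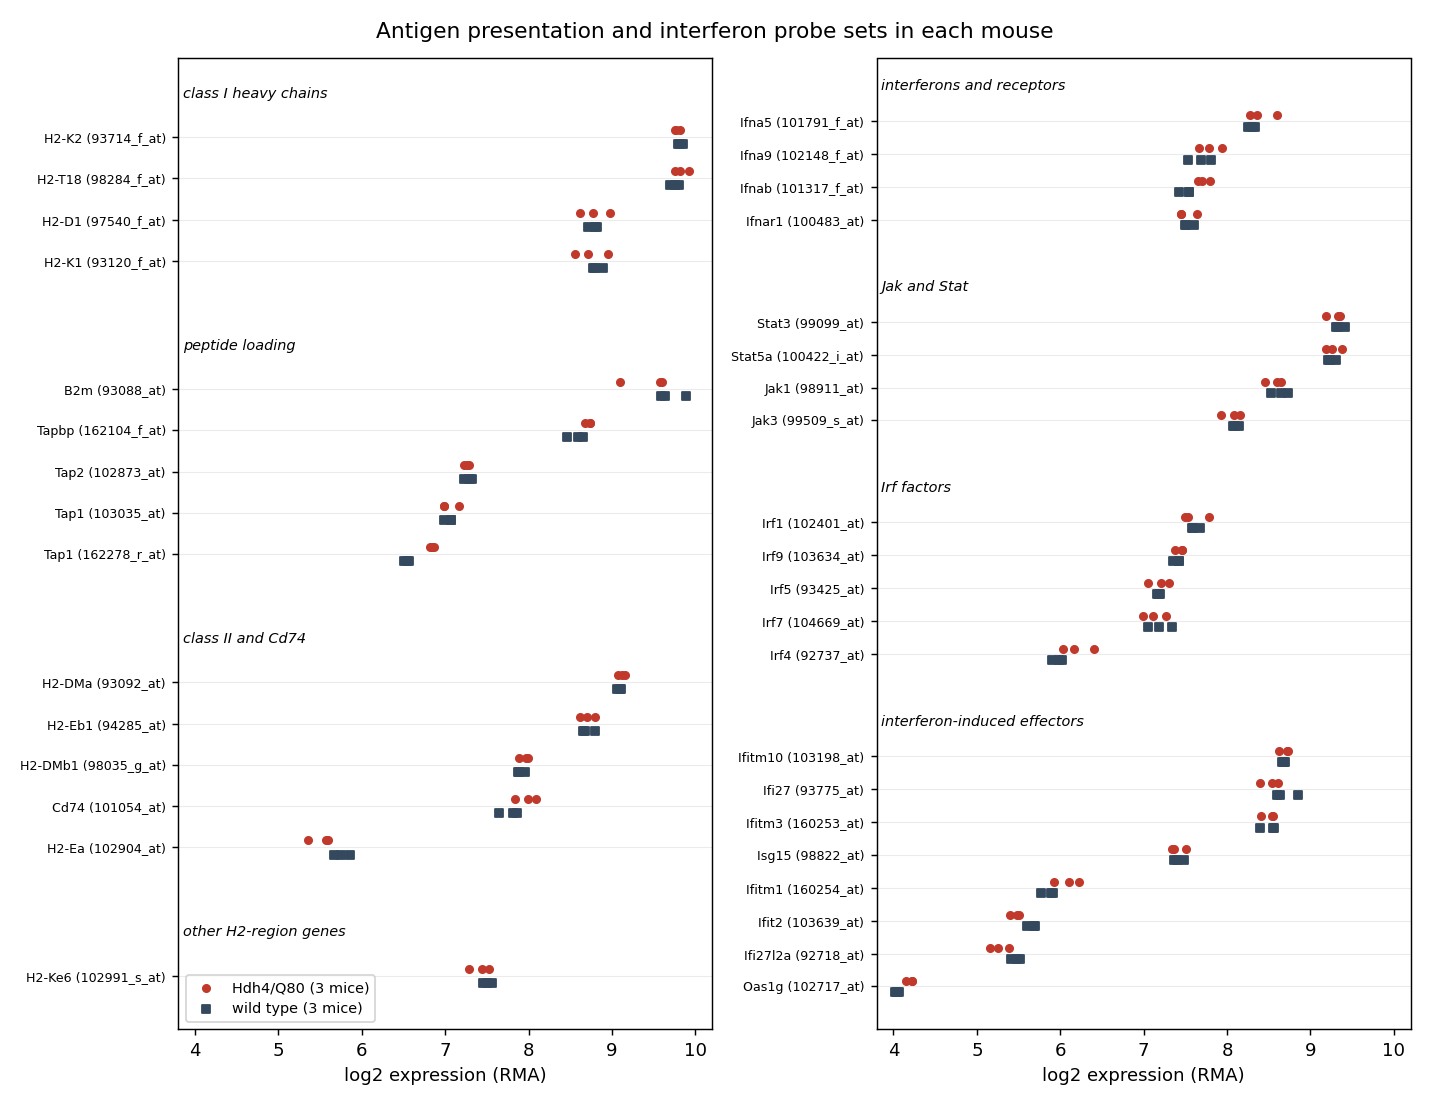
Log2 expression (RMA, horizontal axis) of the named member probe sets (rows, grouped by role) in each of the 3 Hdh4/Q80 mice (circles) and 3 wild type mice (squares). The points of most rows overlap. The Tap1 probe set with the suffix _r_at separates the groups by 0.30 in their means, and B2m shows 1 Hdh4/Q80 mouse at 9.09 with the other mice at 9.57 to 9.89.

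Class II genes and Cd74 had small differences, mostly above 0. Of the 13 probe sets (12 genes), 11 differences lay above 0 and 2 below, with a median of 0.048. Without Hdh4/Q80 replicate 8 there were 8 above and 5 below, with a median of 0.03. That mouse had the highest value in 7 of the 13. An unadjusted p under 0.05 was reached by 2 of the 13 (15.4%, against 5.1% of all probe sets), 1 in each direction.

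Cd74, the invariant chain and in brain a marker of antigen-presenting cells, had 7.84, 7.99 and 8.09 in Hdh4/Q80, against 7.65, 7.81 and 7.86 in wild type. Hdh4/Q80 replicates 8 and 9 were above all wild type mice, and replicate 7 lay among them. The difference was 0.20 (SE 0.0883, 0.00 to 0.40, unadjusted p = 0.0474, adjusted p = 0.857, limma), and 0.06 when limma's array weights were used. H2-Ea, the E alpha chain, is annotated as a pseudogene, since C57BL/6 mice carry a promoter deletion and make no E alpha protein. Its dim probe set had 5.57, 5.36 and 5.59 in Hdh4/Q80, against 5.75, 5.67 and 5.86 in wild type. All mutants were below all wild type mice, by -0.26 (SE 0.0861, -0.45 to -0.06, unadjusted p = 0.0145, adjusted p = 0.857, limma).

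The other class II genes differed by less. H2-DMa, a subunit of the H2-DM molecule that exchanges class II peptides, had 9.16, 9.07 and 9.12 in Hdh4/Q80, against 9.10, 9.11 and 9.06 in wild type (difference 0.03). H2-DMb1, a beta subunit of H2-DM, had 7.89, 7.99 and 7.97 in Hdh4/Q80, against 7.88, 7.96 and 7.87 in wild type (difference 0.05). H2-Eb1, the E beta chain, had 8.70, 8.79 and 8.61 in Hdh4/Q80, against 8.68, 8.80 and 8.65 in wild type, a difference of -0.01. Groups overlapped in all of these. The A alpha and A beta chain genes H2-Aa and H2-Ab1, whose products form the one class II molecule that C57BL/6 cells display, differed by 0.05 each. In H2-DMb2 the mutants were above wild type by 0.09 (0.05 without replicate 8, unadjusted p = 0.216 with it). The MHC-linked dehydrogenase gene H2-Ke6 had 7.53, 7.28 and 7.44 in Hdh4/Q80, against 7.45, 7.50 and 7.56 in wild type, a difference of -0.09, and 0.11 in its other probe set.

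Interferons and their receptors were represented by 16 probe sets (14 genes), 9 with differences above 0 and 7 below. Their median was 0.021. The 9 probe sets of the interferon alpha family, the type I interferons that are made on virus sensing, had 7 differences above 0 and 2 below, with a median of 0.118, the furthest from 0 of the member groups described here. Hdh4/Q80 replicate 8 had the highest of the 6 values in 9 of those 9 probe sets. Without it the family had 5 above and 4 below, and the median was 0.023. Interferon alpha genes are nearly alike in sequence, so these probe sets are not separate measurements.

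Ifnab had 7.70, 7.80 and 7.65 in Hdh4/Q80, against 7.55, 7.43 and 7.55 in wild type. It was the member of this family with the mutants above wild type at an unadjusted p under 0.05, and the difference was 0.20 (SE 0.0736, 0.04 to 0.37, unadjusted p = 0.0199, adjusted p = 0.857, limma). Ifna5 had 8.36, 8.60 and 8.28 in Hdh4/Q80, against 8.25, 8.34 and 8.30 in wild type and a difference of 0.12, with replicate 8 above the rest and replicate 9 among wild type. It was 0.02 without replicate 8 and 0.19 without replicate 9. Ifna9 had 7.78, 7.94 and 7.66 in Hdh4/Q80, against 7.53, 7.81 and 7.69 in wild type, a difference of 0.12 with overlapping groups, which was 0.05 without replicate 8 and equally without wild type replicate 4. In the dim probe set of Ifna11 the mutants were above wild type by 0.14 (unadjusted p = 0.088).

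The dim probe set of Ifng, the interferon of T cells and natural killer cells that most strongly induces MHC genes, had 3.34, 3.32 and 3.48 in Hdh4/Q80, against 3.40, 3.54 and 3.48 in wild type. The groups overlapped and differed by -0.09. Ifnb1, the type I interferon that many cell types make first, was dim too and differed by 0.03. The receptor subunit of type I interferon, Ifnar1, had 7.64, 7.45 and 7.45 in Hdh4/Q80, against 7.60, 7.51 and 7.50 in wild type, overlapping groups that differed by -0.02. Over the 5 receptor probe sets (Ifnar1, Ifnar2, Ifngr1 and Ifngr2) the differences ran from -0.09 to 0.01.

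Jak kinases and Stat proteins, which carry the signal from receptor to nucleus, had 4 differences above 0 and 7 below over 11 probe sets (8 genes), with a median of -0.062. Omitting Hdh4/Q80 replicate 8 gave a median of -0.026, omitting wild type replicate 4 gave -0.021, and array weights gave -0.025. None had an unadjusted p under 0.05, and in none were the groups apart. Stat3, which many cytokines and reactive astrocytes use, had 9.35, 9.33 and 9.19 in Hdh4/Q80, against 9.31, 9.33 and 9.42 in wild type (difference -0.06). Stat5a, a target of growth hormone and prolactin receptors, had 9.26, 9.38 and 9.19 in Hdh4/Q80, against 9.24, 9.31 and 9.21 in wild type (difference 0.02). In both genes the groups overlapped, and their other probe sets differed by -0.08 for Stat3 and 0.11 for Stat5a. Jak1, the kinase used by type I and type II interferon receptors alike, had 8.65, 8.46 and 8.60 in Hdh4/Q80, against 8.73, 8.53 and 8.65 in wild type, a difference of -0.07. Jak3, the kinase of lymphocyte cytokine receptors, had 8.08, 8.15 and 7.93 in Hdh4/Q80, against 8.07, 8.14 and 8.09 in wild type, a difference of -0.05. The Jak2 probe sets differed by -0.07 and -0.14.

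The interferon regulatory factors had 4 differences above 0 and 5 below over 9 probe sets (7 genes), with a median of -0.015. Irf1, a primary target of interferon gamma whose upstream sequence is printed above, had 7.50, 7.78 and 7.53 in Hdh4/Q80, against 7.68, 7.59 and 7.58 in wild type. Both the highest and the lowest values were in mutants, and the difference was -0.02. Irf9, the DNA-binding partner of the Stat complex at the interferon-stimulated response element, had 7.46, 7.46 and 7.38 in Hdh4/Q80, against 7.35, 7.42 and 7.42 in wild type and differed by 0.04. Irf7, which amplifies interferon alpha production, had 7.11, 7.27 and 6.99 in Hdh4/Q80, against 7.05, 7.34 and 7.19 in wild type (difference -0.07), and Irf5, which acts below Toll-like receptors, had 7.21, 7.31 and 7.05 in Hdh4/Q80, against 7.20, 7.16 and 7.18 in wild type (difference 0.01). Groups overlapped in all of these factors. In Irf4, a lymphocyte and myeloid factor, the mutants were above wild type at 6.16, 6.41 and 6.03 in Hdh4/Q80, against 6.02, 5.98 and 5.90 in wild type. That difference was 0.23 (SE 0.0968, 0.02 to 0.45, unadjusted p = 0.038, adjusted p = 0.857, limma), and 0.13 without replicate 8.

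Interferon-induced effectors, the antiviral output of the pathway, made up 29 probe sets (27 genes), of which 16 were dim. Their differences lay above 0 in 16 and below in 13, with a median of 0.007. An unadjusted p under 0.05 was reached by 4 probe sets (13.8%, against 5.1% of all probe sets), 2 in each direction. Groups were apart in 7 (24.1%, against 11.7%), with 4 higher and 3 lower in Hdh4/Q80.

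Isg15, a ubiquitin-like modifier and a standard interferon readout with 3 motif matches in its upstream sequence, had 7.51, 7.34 and 7.37 in Hdh4/Q80, against 7.49, 7.40 and 7.37 in wild type. The groups overlapped, and the difference was -0.02 (-0.18 to 0.15). Ifitm3, a membrane protein that blocks virus entry, had 8.55, 8.41 and 8.54 in Hdh4/Q80, against 8.56, 8.40 and 8.55 in wild type, a difference of -0.00 (-0.17 to 0.17). Ifitm10, a relative of Ifitm3, had 8.73, 8.72 and 8.62 in Hdh4/Q80, against 8.68, 8.70 and 8.66 in wild type (difference 0.01). Ifi27, a small interferon-inducible protein, had 8.54, 8.39 and 8.61 in Hdh4/Q80, against 8.64, 8.60 and 8.85 in wild type. Replicate 8 was the lowest and wild type replicate 6 the highest, and the difference was -0.18 (-0.38 to 0.02, unadjusted p = 0.0712). It was -0.12 without replicate 8 and -0.11 without wild type replicate 6.

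Of the 4 effectors with an unadjusted p under 0.05, Ifitm1 and Oas1g were higher in Hdh4/Q80 and Ifit2 and Ifi27l2a lower. Ifitm1, of the same family as Ifitm3, had 6.10, 5.92 and 6.23 in Hdh4/Q80, against 5.89, 5.77 and 5.91 in wild type. The highest wild type mouse lay just under the lowest mutant, and the difference was 0.23 (SE 0.09, 0.02 to 0.43, unadjusted p = 0.0316), and 0.15 without Hdh4/Q80 replicate 9. Oas1g, of the oligoadenylate synthetase family that senses double-stranded RNA, had 4.15, 4.22 and 4.22 in Hdh4/Q80, against 4.04, 4.07 and 4.02 in wild type in a dim probe set, with all mutants above wild type by 0.15 (SE 0.0659, 0.00 to 0.30, unadjusted p = 0.0445).

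Ifit2, an antiviral tetratricopeptide protein, was dim at 5.51, 5.40 and 5.48 in Hdh4/Q80, against 5.60, 5.70 and 5.68 in wild type. Here all mutants were below wild type, by -0.19 (SE 0.0701, -0.35 to -0.04, unadjusted p = 0.0197). Ifi27l2a, a relative of Ifi27, was dim at 5.39, 5.26 and 5.16 in Hdh4/Q80, against 5.52, 5.41 and 5.48 in wild type, again with all mutants below, by -0.20 (SE 0.0789, -0.37 to -0.02, unadjusted p = 0.0326). With array weights the Ifi27l2a difference was -0.09 (unadjusted p = 0.114). The adjusted p of these 4 effectors was 0.857 (limma). Among guanylate-binding proteins, interferon-gamma-induced GTPases, Gbp2b was above wild type by 0.15 (dim) and Gbp2 differed by -0.10 (-0.04 without wild type replicate 4), both with groups apart. For Gbp2 the nearest mice, Hdh4/Q80 replicate 8 and wild type replicate 5, were both at 5.92 after rounding. Mx1, a GTPase against influenza virus that is defective in most laboratory strains and annotated as a pseudogene here, was above wild type by 0.15 in a dim probe set. The unadjusted p of these 3 was 0.0588, 0.22 and 0.054 in that order.

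**Figure D3:**
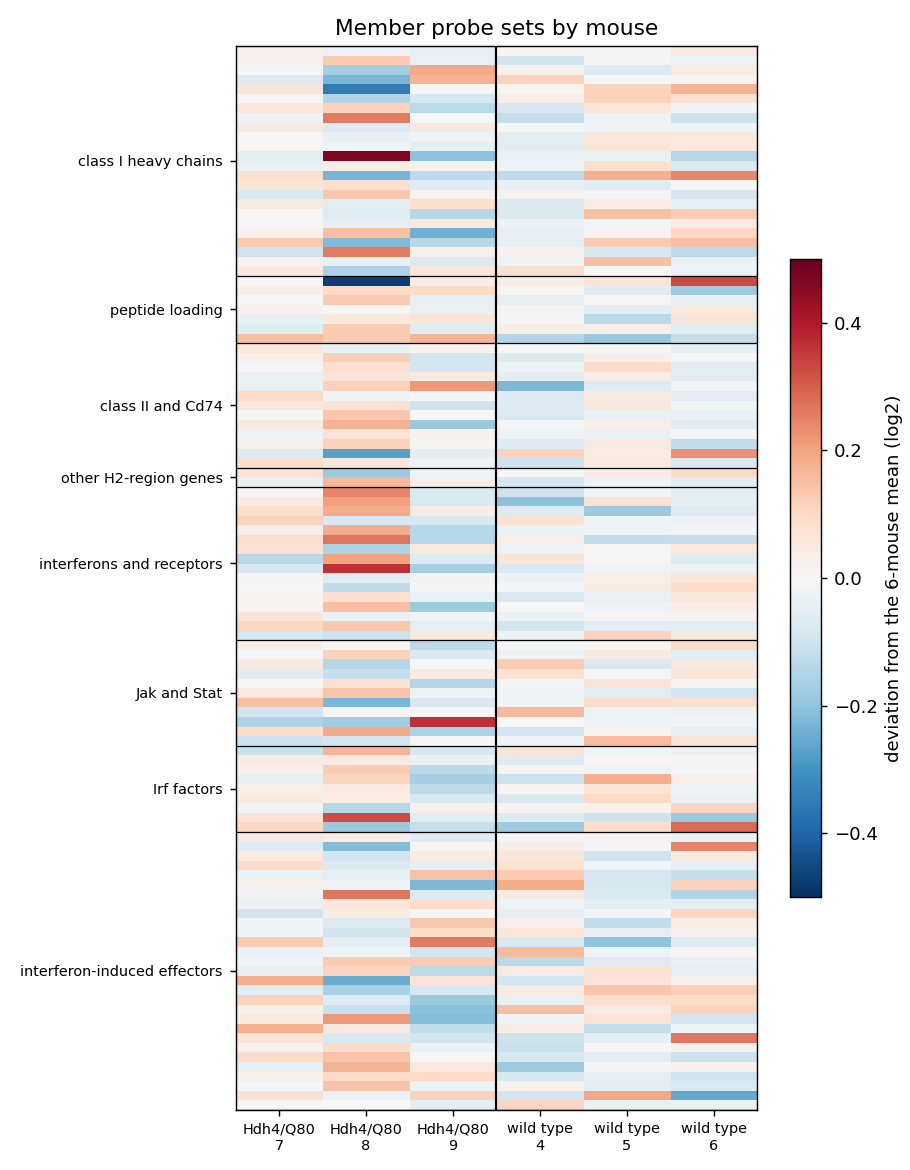
Deviation of each of the 111 member probe sets (rows, grouped by role) from its mean over the 6 mice (colour, log2), with a column for each Hdh4/Q80 mouse (left) and each wild type mouse (right). The strongest colours are in the column of Hdh4/Q80 replicate 8, the highest mouse in 43 rows and the lowest in 28.

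How often each mouse was extreme followed the whole array. Hdh4/Q80 replicate 8 was the highest or lowest of the 6 in 64% of members, against 61.8% of all probe sets, replicate 9 in 44.1%, against 40.5%, and replicate 7 in 16.2%, against 16.5%. Wild type mice were extreme in 18.9% to 30.6% of members, against 22.2% to 29.7% of all probe sets. Among interferons and receptors replicate 8 was extreme in 15 of 16 probe sets, highest in 10 and lowest in 5. The SD of the members' deviations from their means was 0.156 in replicate 8, against 0.0653 in replicate 7 and 0.106 in replicate 9.

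**Figure D4:**
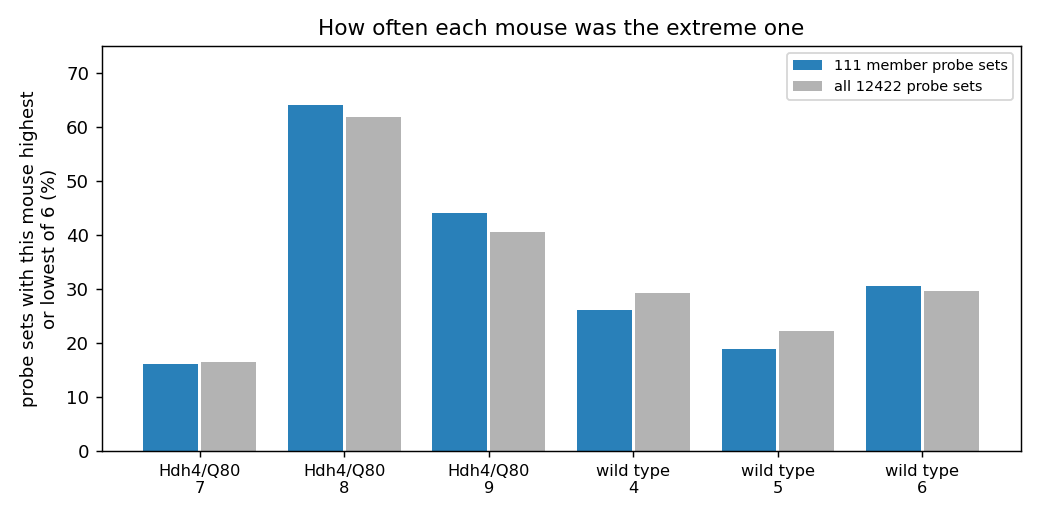
Share of probe sets (%, vertical axis, from 0) in which each mouse (horizontal axis) was the highest or lowest of the 6, for the 111 members (blue) and all 12422 probe sets (grey). Hdh4/Q80 replicate 8 is the extreme mouse in 64% of members and 61.8% of all probe sets, and the pair of bars is alike in each mouse.

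Genes of the same pathway that the symbol pattern does not take in were read from a list of 65 (proteasome subunits, chaperones, proteases, kinases and further interferon-induced genes), of which 47 were measured. None passed the adjusted threshold (limma). An unadjusted p under 0.05 was reached by 2 (4.26%, against 5.1% of all probe sets), with 2 higher and 0 lower in Hdh4/Q80. Their differences lay above 0 in 20 and below in 27, with a median of -0.02 and a range of -0.18 to 0.20. Canx, the chaperone calnexin that holds new class I heavy chains, had 9.22, 9.48 and 9.19 in Hdh4/Q80, against 9.10, 9.08 and 9.10 in wild type (difference 0.20, unadjusted p = 0.044), with replicate 8 well above the others. Without it the Canx difference was 0.11 (unadjusted p = 0.118). Pml, an interferon-induced nuclear body protein, was higher by 0.16 (unadjusted p = 0.0443). The immunoproteasome subunits Psmb8 and Psmb9 differed by -0.12 and -0.11, and Psmb10 by -0.00. Ctss and Psme3, which with Canx and Psmb10 were the brightest of the list, differed by -0.07 and -0.09. For all 47 genes the 95% interval lay within 1.5-fold.

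Markers of the cells that carry MHC molecules were set beside these values. Of 11 measured microglial markers out of 15 listed, 10 had differences below 0, with a median of -0.12. An unadjusted p under 0.05 (limma) was reached by 4 of them (36.4%, against 5.1% of all probe sets), with lower values in Hdh4/Q80. These were the complement genes C1qa, C1qb and C1qc, and the adaptor Tyrobp. The other markers differed by -0.13 (Cd53) to 0.13 (Itgam), among them Cx3cr1 at -0.01 and Aif1 at -0.06. C1qb had 8.57, 8.15 and 8.67 in Hdh4/Q80, against 8.70, 8.83 and 8.92 in wild type, the mutants below wild type with replicate 8 the lowest. Its difference was -0.35, and -0.19 without replicate 8. Without that mouse C1qa differed by -0.17 in place of -0.28, C1qc by -0.19 in place of -0.32 and Tyrobp by -0.12 in place of -0.21. The list then had 10 of 11 below 0, a median of -0.09 and 3 genes at an unadjusted p under 0.05 (27.3%, against 4.03%). The summed linear level of the list was 3520 to 4240 in Hdh4/Q80, against 4500 to 4690 in wild type, and replicate 8 was the lowest mouse for 7 of the 11. The brightest genes weigh most in that sum, and C1qc was the brightest of the list. B2m and Cd74 are expressed by microglia, and the part of these markers in the B2m and Cd74 differences was not tested. Replicate 8 was the lowest mouse for B2m and C1qb and not for Cd74. It was also the lowest in 4186 of all 12422 probe sets.

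Lymphocyte markers had overlapping ranges of their summed linear levels. These were 914 to 925 in Hdh4/Q80, against 868 to 949 in wild type, for T cells (8 of 9 measured, 5 dim), and 1010 to 1070, against 1050 to 1140, for B cells (5 of 6 measured). Cd4, with a mean of 8.75 in both groups, was the brightest T cell marker and weighs most in that sum. Natural killer cell markers (4 of 5 measured, 3 dim) summed to 159 to 178, against 153 to 160. The 6 measured of 7 perivascular and blood myeloid markers, 5 of them dim, gave 617 to 706 in Hdh4/Q80, against 618 to 637 in wild type. Endothelial markers (9 of 9) gave 1930 to 2110, against 2070 to 2290, and red cell markers (2 of 4) gave 2540 to 2820, against 3190 to 3760, without overlap between the groups. That separation is the haemoglobin gene Hba-a1 (difference -0.43), since Alas2, the other marker, differed by -0.01. Astrocyte markers (5 of 7) gave 2220 to 2740, against 2530 to 2610, with 4 of 5 differences below 0 and a median of -0.14, or 3 of 5 and -0.06 without replicate 8. Choroid plexus markers (4 of 8) ranged from 737 to 3030 in Hdh4/Q80, against 705 to 1680 in wild type. All 4 differences lay above 0, with a median of 0.57, or 0.48 without replicate 8. Ttr had 8.46, 10.59 and 11.24 in Hdh4/Q80, against 8.48, 8.32 and 10.26 in wild type. Its difference was 1.08 (unadjusted p = 0.14, limma), and the highest over all probe sets was 1.08. From the top, Hdh4/Q80 replicates 9 and 8 and wild type replicate 6 were the highest mice for Ttr, Folr1 and the dim Kl, but not for Aqp1. They were also the highest for Cd74, in the same order. For the tissue label, the striatal neuron list (6 of 10 measured) summed to 10600 to 11600 in Hdh4/Q80, against 10200 to 12200 in wild type. That sum is mostly Penk, with means of 13.04 in Hdh4/Q80 and 13.02 in wild type. Rgs9 was the 1 dim gene of the list. Vwf was the 1 of 9 endothelial markers at an unadjusted p under 0.05 (11.1%, limma), with a difference of -0.30. So were S100b of 5 astrocyte markers (20%, -0.19), the dim Lyz2 of 6 myeloid markers (16.7%, -0.21) and Hba-a1 of 2 red cell markers (50%). Each was lower in Hdh4/Q80, and the share over all probe sets was 5.1%. The other lists of this paragraph had none. No marker passed the adjusted threshold, and the part of any of these cells in the members' values was not tested.

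**Figure D5:**
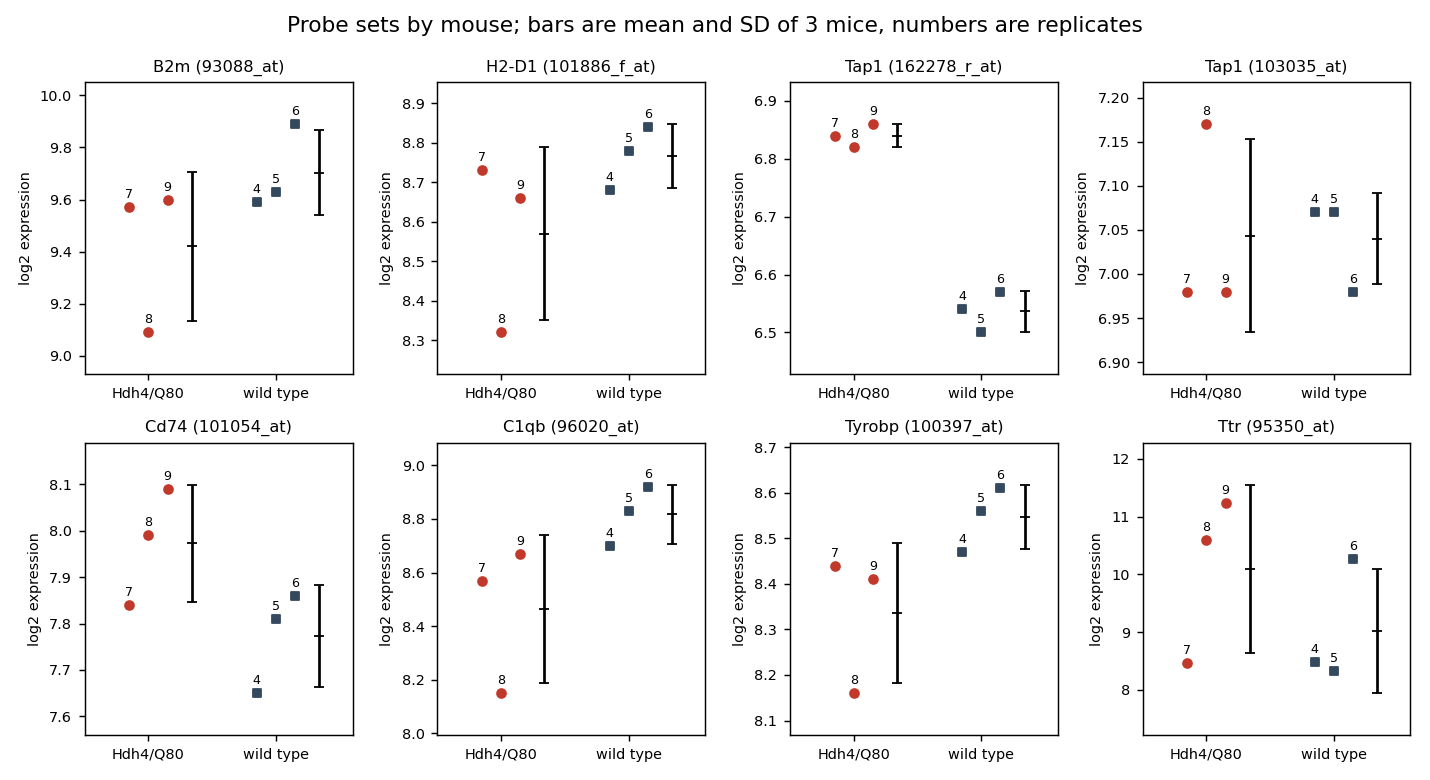
Log2 expression (vertical axes) of 4 member genes and of markers of microglia (C1qb, Tyrobp) and choroid plexus (Ttr) in each mouse (points numbered by replicate), Hdh4/Q80 left and wild type right, with mean and SD of 3 mice. The H2-D1 panel shows the probe set of that gene with the lowest difference (-0.20), not the brightest, which differed by 0.01. Replicate 8 is the lowest point for B2m (9.09) and for C1qb (8.15), and for Cd74 it lies at 7.99. It is the lowest mouse in 4186 of all 12422 probe sets.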

How the data were processed

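Striatal RNA of 6 mice was measured, 1 array per mouse. The authors deposited log2 expression values per probe set, made with RMA (affy), per the submitters' processing notes; their versions are not given here. RMA equalises arrays, so a global change in RNA amount would not show, and it compresses dim probe sets. No scanner files or detection calls were used, so none could be called undetected, and the small number of arrays limits the precision. Groups and replicate numbers came from the titles, and no batch or date is labelled. The p-values weigh each difference against the spread between these mice, which limma moderates with the spread of all probe sets.

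Of 12488 probe sets, 66 controls were left out. Genes were named from the platform annotation, only where it gave 1 symbol, and the 89 member genes matched the RefSeq table (GRCm38.p6). A further 19 probe sets with several symbols, at least 1 of them fitting the pattern, were kept apart. The brightest probe set stood for a gene with several. Of the member probe sets, 37 carry a suffix (_f_at, _s_at, _i_at or _r_at) that marks shared or less specific probes. The groups were compared in R 4.3.3 with limma 3.58.1 (lmFit, then eBayes; degrees of freedom 4 residual and 5.81 prior). The p-values were adjusted over 12422 probe sets by Benjamini-Hochberg, with a threshold of 0.05 and 95% intervals. The script was tested on simulated data. The members and lists were chosen with earlier results of these data known. Genes named were the 4 of highest mean in each role, the members with an unadjusted p under 0.05, brightest probe sets that spanned over 1 log2 unit (none), and genes whose probe sets differed in sign by over 0.1 each (none). H2-M3, H2-M9, H2-DMb2, H2-Aa, H2-Ab1, Ifna11, Ifng, Ifnb1, Gbp2, Gbp2b, Mx1, Jak2 and the interferon receptors other than Ifnar1 fall outside that rule and were added after their values were seen. For the other pathway genes the rule was to name the 4 of highest level (Ctss, Canx, Psmb10 and Psme3). Pml, Psmb8 and Psmb9 were named outside it. Alternatives were renewed quantile normalization, median centring, leaving out the dimmest 40% of probe sets, trended and robust moderation, weighting of arrays, averaging of the probe sets of each gene, and omission of single mice.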

Additional observations from a re-analysis of the deposited data

How the results depend on the processing

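The count of members at an adjusted p under 0.05 was 0 under every alternative run. The count at an unadjusted p under 0.05 (9 as reported) was 3 of 63 without the dimmest 40% of probe sets (4.76%, against 4.54% of all) and 21 with array weights (18.9%, against 14.6%). It was 11 of 89 when probe sets were averaged per gene (12.4%, against 4.58% of all), further from the share over all than in the reported fit. It was 4 to 13 when single mice were left out, lowest without wild type replicate 6 (3.6%, against 2.02%) and highest without Hdh4/Q80 replicate 7 (11.7%, against 8.44%). The count of members with groups apart (16 as reported) was 6 of 63 without the dimmest 40% (9.52%, against 11.4%), 12 with median centring (10.8%, against 11.8%) and 17 of 89 with the mean of probe sets (19.1%, against 11.2%). It was 18 to 40 when single mice were left out, where the share over all probe sets was 16.3% to 28%. The array weights gave Hdh4/Q80 replicate 7 a weight of 6.19, against 0.228 and 0.405 for replicates 8 and 9. The median difference (0.009) ranged from -0.003 to 0.026. Of the 36 named differences, 17 changed sign under some alternative, none of them larger than 0.09 in size as reported. With renewed quantile normalization these were H2-K2 at 0.01, H2-Eb1 at 0.03 and Ifitm3 at 0.02. With array weights they were H2-D1 at -0.00, Tap2 at 0.00, Tap1 (the probe set without the _r_at suffix) at -0.04, Ifnar1 at 0.10, Jak1 at 0.01, Ifitm3 at 0.04 and Isg15 at 0.09. With the mean of probe sets they were H2-D1 at -0.07 and H2-Ke6 at 0.01. Leaving out single mice gave H2-D1 -0.09 to 0.09, H2-Eb1 -0.05 to 0.04, H2-K1 -0.19 to 0.01, Ifitm10 -0.01 to 0.04, Ifitm3 -0.06 to 0.04, Ifnar1 -0.09 to 0.01, Irf1 -0.10 to 0.04, Irf5 -0.05 to 0.08, Irf7 -0.14 to 0.00, Isg15 -0.07 to 0.02, Jak3 -0.10 to 0.02, Stat5a -0.03 to 0.07, Tap1 (the probe set without the _r_at suffix) -0.06 to 0.03 and Tap2 -0.04 to 0.01. The cause was not tested. No paired analysis was possible because the groups share no replicate numbers. With 3 mice per group, differences under about 1.25-fold are within the interval of many members, and the files hold no signal over background.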

Other observations

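The 19 probe sets annotated with several symbols, at least 1 of them fitting the pattern, were outside the members. Of these, 0 passed the adjusted threshold (limma), 1 had an unadjusted p under 0.05 (higher in Hdh4/Q80) and 0 had groups apart. Their differences lay above 0 in 10 and below in 9, with a median of 0.015 and a range of -0.32 to 0.25. Hdh4/Q80 replicate 8 was the highest or lowest mouse in 11 of the 19.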
